A study of Taeniopygia guttata with 48 samples.

Results

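The 200 genes described here, of 17475 in the table, were chosen because their level went up and down together in 2 brain regions of adult zebra finches, the hypothalamus and the nucleus taenia. The study injected eggs on the day of laying with testosterone (500 pg, carried in 5 µl peanut oil), or with the same volume of oil alone, and took brain tissue from the adults. Its 24 RNA libraries form 8 groups of 3, which are testosterone males, control males, testosterone females and control females, each in both regions. Brains were frozen and cut into 50 µm sections, and each region was taken with a 1 mm punch, so a library holds a mixture of cell types. In such bulk tissue fewer cells of a type and less RNA per cell cannot be told apart.

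The hypothalamus releases and controls hormones and holds many neurons that respond to sex steroids. The nucleus taenia belongs to the amygdala of birds and is involved in social and sexual behaviour. Female birds pass testosterone into the yolk, and yolk testosterone is known to alter growth and behaviour of the offspring. Genes can differ between animals in the same way in several tissues, and such agreement can be read only where tissues are matched, which here rests on the names of the libraries.

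A library of one region and a library of the other carry the same name apart from the region, such as control male 1, and are called a pair below. There are 12 pairs. The labels do not say that the libraries of a pair came from 1 bird, nor that the libraries of a group came from separate birds, so p-values measure only the spread between these samples. The values are FPKM, which count sequenced fragments relative to the length of the transcript and to all fragments mapped in the library. Of 17475 genes in the table, 9137 had a mean of at least 10 FPKM and no value of 0. For each, log2(FPKM + 1) was taken and the mean of its group was subtracted, which leaves a deviation for every library. The SD of the 24 deviations was at least 0.5 in 2761 genes, called eligible below, and the 200 with the highest Pearson r between the deviations of both regions over the 12 pairs were taken. The members were thus chosen by their level, their spread within groups and this r. All 200 members are counted in every statement below. Since group means were subtracted, the 12 deviations of a region hold 8 independent values.

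The gene table at hand matched 0 of the Ensembl identifiers, so no member could be given a name, a function or a chromosome, and near-identical gene copies could not be recognised. Lists of cell type markers could not be applied either, and the labelled regions were therefore not checked against markers. Members are given by identifier or by their rank in r, and levels can be compared between genes since FPKM is per length.

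The library labelled female testosterone hypothalamus replicate 3 stood apart from the others. Its median was 7.03 FPKM, against 10.3 to 12.02 in the others. Its mean r with the other libraries across genes was 0.757, against 0.844 to 0.915. Without its pair, 1748 genes were eligible, against 2761 with it, and 156 of the 200 members were among them. The rule then kept 138 of the 200 members. Leaving out any other pair left 2421 to 2871 genes eligible. Many of the other eligible genes used for comparison below were thus eligible only with this pair. The read number behind a value is unknown, since FPKM divides it out.

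Agreement between the regions chose the members, and it is given as a description. The members' r ran from 0.678 to 0.989, with a median of 0.794, and it was at least 0.9 in 33 members. The 2561 eligible genes that were not chosen had a median r of 0.216. The limit fell in a continuous range, with r of 0.67794 and 0.67787 for the last 2 members and 0.67543 and 0.67495 for the next 2 genes outside.

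**Figure D1:**
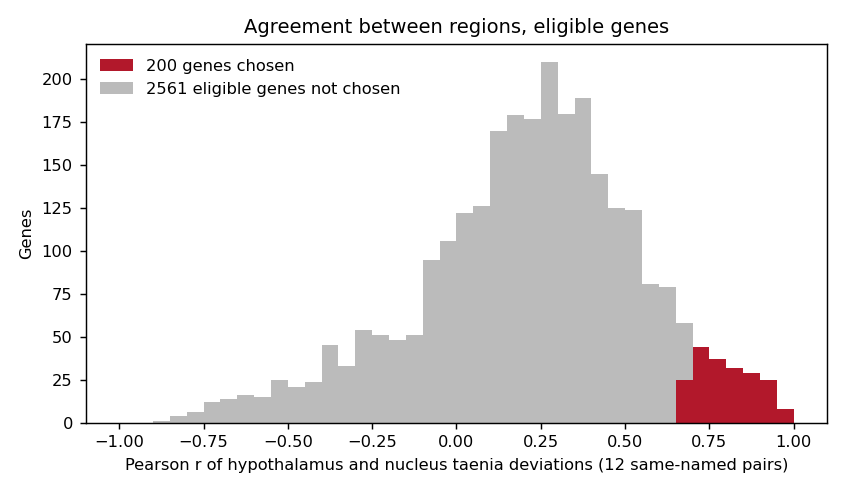
Histogram of Pearson r between hypothalamus and nucleus taenia deviations over 12 same-named pairs (x axis) against the number of genes (y axis), for the 200 members and the 2561 other eligible genes. The members form the upper tail of a single broad distribution, from 0.678 upward, and the other genes have a median of 0.216.

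The member with the highest r (0.989), ENSTGUG00000014634, showed the pattern in all 4 groups of sex and treatment. In testosterone males 1 to 3 it had 15.2, 24.96 and 2.28 FPKM in the hypothalamus and 12.02, 25.3 and 4.03 FPKM in the nucleus taenia. Control males 1 to 3 had 6.67, 3.33 and 30.0 FPKM in the hypothalamus and 5.73, 2.66 and 18.1 FPKM in the nucleus taenia. The libraries thus lay near their partners, least so in testosterone female 1 and control female 1, where levels were low. The highest and lowest library of a group and region differed by 6.27-fold to 63.9-fold over the 8 groups. The difference was largest in testosterone females of the hypothalamus, where testosterone female 1 had 0.359 FPKM. Testosterone females 1 to 3 had 0.359, 6.83 and 22.9 FPKM in the hypothalamus and 1.07, 5.69 and 14.6 FPKM in the nucleus taenia. Control females 1 to 3 had 1.09, 9.05 and 19.0 FPKM in the hypothalamus and 2.23, 7.71 and 18.5 FPKM in the nucleus taenia. Of the 200 members it was the only one in which all 4 groups had the same highest and the same lowest pair in both regions with at least 4-fold between them in each region.

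ENSTGUG00000015503, ranked 2nd (r = 0.986), was near absent from 1 pair. In testosterone males 1 to 3 the values were 21.3, 23.0 and 33.0 FPKM in the hypothalamus and 20.2, 19.6 and 29.8 FPKM in the nucleus taenia. In control males 1 to 3 it had 0.105, 21.6 and 10.9 FPKM in the hypothalamus and 0.0829, 22.2 and 10.8 FPKM in the nucleus taenia. Only the control male 1 pair was under 1 FPKM. Testosterone females 1 to 3 had 30.4, 19.6 and 12.9 FPKM in the hypothalamus and 29.7, 29.5 and 20.8 FPKM in the nucleus taenia. Control females 1 to 3 had 20.1, 16.6 and 4.03 FPKM in the hypothalamus and 15.5, 14.0 and 4.38 FPKM in the nucleus taenia. The pair control female 3 was the lowest of the rest in both regions. Without the control male 1 pair, r was 0.961.

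ENSTGUG00000014968, ranked 3rd (r = 0.976), was lowest in the pair testosterone female 3. Testosterone females 1 to 3 had 105.7, 43.9 and 1.85 FPKM in the hypothalamus and 90.2, 36.7 and 5.57 FPKM in the nucleus taenia. Control females 1 to 3 had 149.4, 116.9 and 60.4 FPKM in the hypothalamus and 79.2, 107.0 and 55.3 FPKM in the nucleus taenia. The nucleus taenia library of testosterone female 3, which did not stand apart from other libraries, was low as well. As the gene was chosen for agreement between the regions, this is not separate evidence. In testosterone males 1 to 3 the gene had 33.7, 29.7 and 84.8 FPKM in the hypothalamus and 45.4, 42.4 and 71.7 FPKM in the nucleus taenia. Control males 1 to 3 had 61.5, 93.7 and 79.5 FPKM in the hypothalamus and 57.7, 85.0 and 84.8 FPKM in the nucleus taenia. Without the pair testosterone female 3, its r was 0.881.

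ENSTGUG00000013645, ranked 4th (r = 0.976), varied in every group without coming near 0. Testosterone males 1 to 3 had 20.1, 21.0 and 51.0 FPKM in the hypothalamus and 22.9, 15.6 and 63.9 FPKM in the nucleus taenia. Control males 1 to 3 had 20.6, 59.1 and 10.1 FPKM in the hypothalamus and 18.3, 51.0 and 7.44 FPKM in the nucleus taenia. The pair control male 2 was about as high as testosterone male 3, and control male 3 was the lowest pair of all 12. Testosterone females 1 to 3 had 15.3, 39.2 and 36.8 FPKM in the hypothalamus and 21.1, 52.8 and 71.1 FPKM in the nucleus taenia. Control females 1 to 3 had 24.9, 69.8 and 24.4 FPKM in the hypothalamus and 24.7, 102.6 and 29.1 FPKM in the nucleus taenia. Control female 2 was the highest pair.

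**Figure D2:**
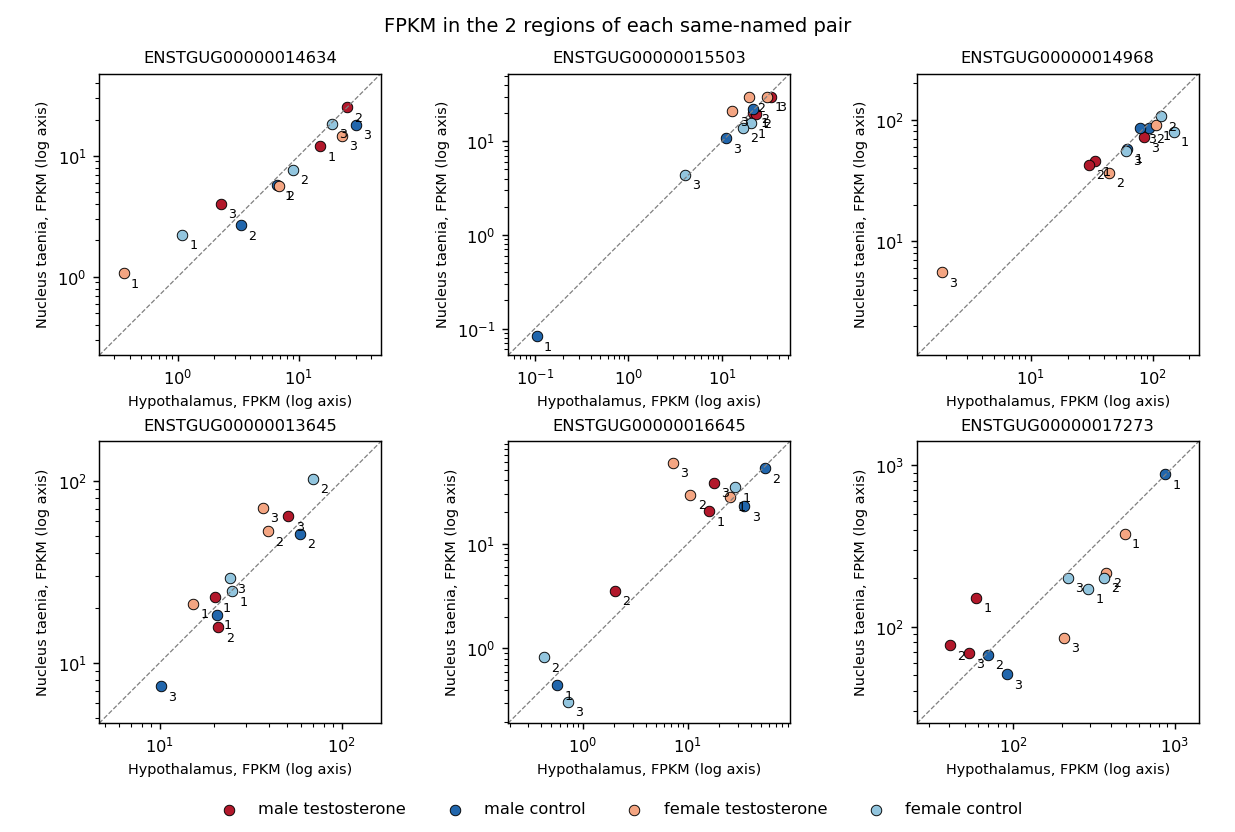
FPKM of hypothalamus (x axis, log) and nucleus taenia libraries (y axis, log) for 6 members, 1 point per pair, coloured by sex and treatment and numbered by replicate; the dashed line marks equal values. Most points lie near the line over wide ranges, with ENSTGUG00000015503 at 0.105 and 0.0829 FPKM in control male 1 and ENSTGUG00000017273 at 869 and 879 FPKM in the same pair. ENSTGUG00000016645 lies off the line in testosterone female 3, at 7.29 and 58.9 FPKM.

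A pair under 1 FPKM in both regions was found in 8 of the 200 members and in 13 of the 2561 other eligible genes, or 4% and 0.508%. Low values in both libraries of a pair are part of the agreement that chose the members, so nothing is read from these shares. The requirement of no value of 0 left out genes that are listed at 0 in any library. ENSTGUG00000016645, ranked 20th and singled out after its values were seen, was the member with most such pairs, 3. Its 12 testosterone libraries had 2.04 to 58.9 FPKM, with the lowest values, 2.04 and 3.55 FPKM, in testosterone male 2. The regions were less alike in testosterone females 2 and 3, with 10.6 and 7.29 FPKM in the hypothalamus and 29.3 and 58.9 FPKM in the nucleus taenia. It had 0.567, 54.9 and 34.8 FPKM in the hypothalamus and 0.443, 52.4 and 22.6 FPKM in the nucleus taenia of control males 1 to 3. Control females 1 to 3 had 28.3, 0.429 and 0.714 FPKM in the hypothalamus and 34.5, 0.824 and 0.309 FPKM in the nucleus taenia. The 3 low pairs were all control pairs, and by definition a pair was counted only where both regions were under 1 FPKM. Its treatment difference did not pass in any of the 4 comparisons given below.

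The highest library was at least 10-fold above the lowest in 119 of the 200 members, or 59.5%, against 71.2% of the other eligible genes. It was at least 100-fold above in 14 members, or 7%, against 6.21%. The median fold was 12.9 in the members and 15.4 in the other eligible genes, so the members did not have the wider total range. Among the 3 pairs of a group the median range was 1.32 (hypothalamus) and 1.30 (nucleus taenia) on the log2 scale (each the median over members of the median over 4 groups). Within a pair, the deviations of the 2 libraries differed by a median of 0.31 on the log2 scale. In the other eligible genes the range was 1.10 (hypothalamus) and 1.09 (nucleus taenia), and the difference within a pair was 0.51. The order of the 3 pairs of a group was the same in both regions in all 4 groups for 14 members and in at least 1 group for 195. Of the other eligible genes, 0% had the same order in all 4 groups and 31.2% had it in 0 groups, so most had it in at least 1. In 72 members, or 36.0%, at least 1 group had 4-fold or more between the same 2 pairs in both regions, against 5.58% of the other eligible genes. All of these measures use the deviations that chose the members.

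The following values recompute r on the deviations that chose the members and describe them only. With the pair of the largest deviation left out, the median r was 0.714, the lowest was 0.06, and r was at least 0.5 in 177 of 200 members, or 88.5%, against 14.0% of the other eligible genes. Computed in each sex alone, over 6 pairs, r was at least 0.5 in both sexes for 170 members, in males only for 22 and in females only for 8. It was below 0 in males for 2 members and in females for 5. The median was 0.896 in males and 0.798 in females. In the other eligible genes the median was 0.437 in males and 0.148 in females.

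The members did not follow 1 common pattern. They vary together between regions, gene by gene, and less so with each other. The means of the deviations of a pair were taken for each member, and the median absolute r between 2 members over the 12 pairs was 0.309, against 0.445 between other eligible genes. The leading axis of the members' deviations held 23.6% of their squared size, the second 22.2% and the third 16.7%, of 8 possible axes. In the other eligible genes the leading axis held 47.3%. The pair testosterone female 3, whose hypothalamus library stands apart, had the largest deviation in 45.1% of those genes. Their likeness and axes were not computed without that pair, so nothing is read from the contrast with the members. Linking members at an absolute r of at least 0.9 left 104 of 200 with no partner. It gave 9 sets of 3 or more, with 80 members in them, and the largest set had 46 members. In 27 of those 46 the largest deviation was in the pair testosterone female 3, and 21 were higher and 25 lower in their pair.

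The leading axes had their largest weights in a few pairs. The first had its largest weight, 0.72, in testosterone female 3, with −0.41 in testosterone female 1 and −0.31 in testosterone female 2. The second had 0.64 in control male 1, 0.42 in testosterone male 2 and −0.36 in control male 3. The third had 0.64 in testosterone male 1 and −0.53 in testosterone male 2. Since group means were subtracted, the weights of a group cancel, so opposite signs within a group follow from the subtraction. Without the pair testosterone female 3 the leading axis of the same members held 28.5%. Fewer axes are possible without a pair, so this share is not directly comparable with that of all pairs.

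The largest deviation of most members fell in a few pairs. It fell in testosterone female 3 in 45 members, of which 21 were higher and 24 lower than their group. It fell in testosterone male 2 in 39, of which 29 were higher and 10 lower. The counts were 28 for testosterone male 1, with 10 higher and 18 lower, and 25 for control male 1, with 8 higher and 17 lower. The other pairs had 2 to 12. Testosterone female 3 had the largest deviation in 22.5% of the members, against 45.1% of the other eligible genes, and testosterone male 2 in 19.5% of the members, against 8.79% of the others. On average over members, testosterone male 2 lay 0.27 above its group on the log2 scale in the hypothalamus and 0.33 above it in the nucleus taenia. The nucleus taenia library of that pair had the second lowest mean r with other libraries, 0.844, and its part in these counts was not tested.

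**Figure D3:**
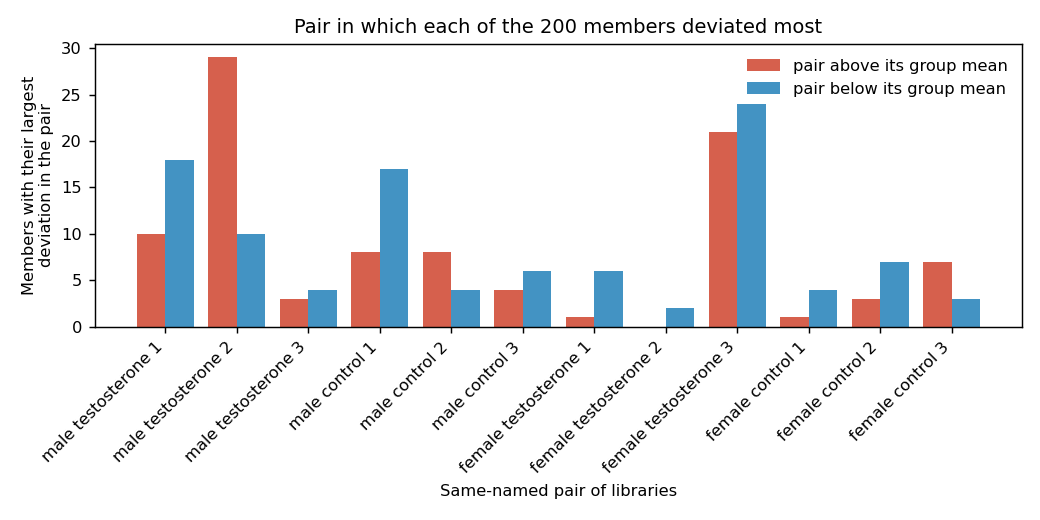
Number of the 200 members (y axis) whose largest mean deviation fell in each same-named pair (x axis), split by whether the pair was above or below its group mean. Testosterone female 3 has 21 above and 24 below, testosterone male 2 has 29 above and 10 below, and testosterone female 2 has 0 above and 2 below.

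Across genes, the libraries of a pair agreed over the members in every pair. The r between the regions across the 200 members was 0.731 to 0.924, highest in control male 1 and lowest in testosterone male 3. Across the 2561 other eligible genes it ran from −0.40 in testosterone male 3 to 0.67 in control male 1, and it was −0.39 in control female 1. In those 2 pairs the r was thus negative over the other eligible genes and positive over the members. The rule chose genes for this agreement, and genes are not independent replicates.

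**Figure D4:**
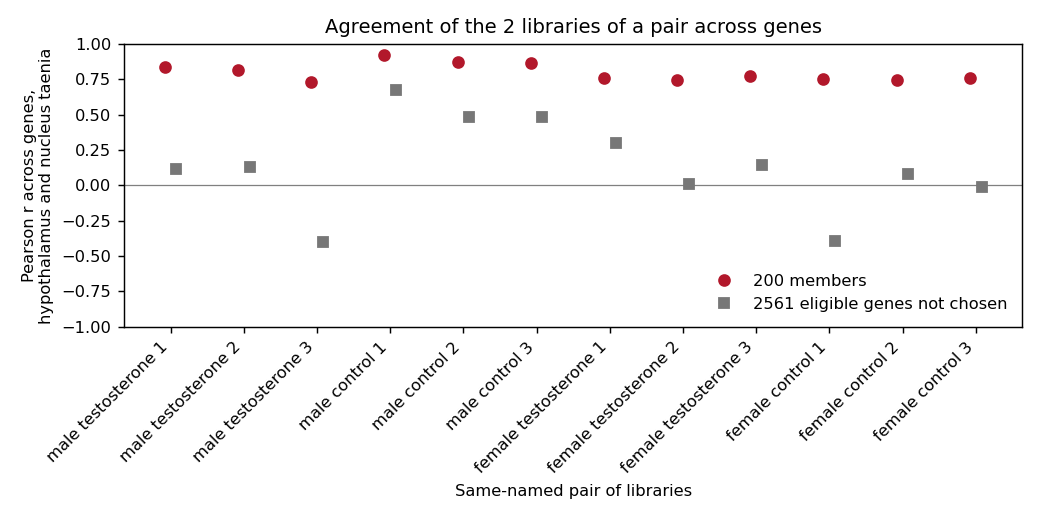
Pearson r across genes between the deviations of the hypothalamus and the nucleus taenia library (y axis) of each pair (x axis), for the 200 members (circles) and the 2561 other eligible genes (squares). The members lie at 0.731 to 0.924 in all 12 pairs, and the other genes at −0.40 to 0.67.

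Members were of lower level than other eligible genes. Their mean ran from 10.1 to 20318 FPKM, with a median of 23.1, against a median of 38.0 in the other eligible genes. A mean under 50 FPKM was found in 158 members, or 79.0%, against 59.9% of the others. The rule set a minimum level and no maximum.

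The most abundant gene of the whole table was a member. ENSTGUG00000016331, ranked 138th (r = 0.742) and singled out after its values were seen, had the highest FPKM of all genes in 16 of 24 libraries. In the hypothalamus it had 2422, 28101 and 8528 FPKM in testosterone males 1 to 3 and 16133, 28681 and 37161 FPKM in control males. Its nucleus taenia values were 2009, 44647 and 45751 FPKM in testosterone males 1 to 3 and 7501, 8853 and 10055 FPKM in control males. Testosterone male 1 was the lowest male pair in both regions. Testosterone females 1 to 3 had 5123, 5474 and 324 FPKM in the hypothalamus and 53759, 35954 and 13750 FPKM in the nucleus taenia. Control females 1 to 3 had 15549, 9278 and 26979 FPKM in the hypothalamus and 24642, 27649 and 29309 FPKM in the nucleus taenia. The deviations of a pair had the same sign in 11 of 12 pairs but differed by up to 1.57 on the log2 scale, in testosterone female 3. The levels of a pair were not alike either, with the nucleus taenia at 0.271-fold to 42.5-fold of the hypothalamus, lowest in control male 3 and highest in testosterone female 3. This gene took between 0.0219% and 5.23% of a library's total FPKM, and all 200 members together took 1.13% to 6.23%.

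The differences between group means were not used by the rule, and they were tested with limma over all genes with a mean of at least 1 FPKM, with Benjamini-Hochberg adjustment over all of them at 0.05. The rule did use the spread within groups, which enters these tests, and the members' intervals were wider than those of all genes tested, with a median half-width of 1.34 against 0.905 on the log2 scale for treatment in the hypothalamus. For testosterone against control, 0 of 13569 genes passed in male hypothalamus and in female hypothalamus, and 0 of 13551 in male and in female nucleus taenia (0% each), and so 0 of the 200 members. At an unadjusted p under 0.05 in limma, 13 members were found in male hypothalamus, or 6.5%, against 6.14% of all genes tested. In female hypothalamus there were 9, or 4.5%, against 5.14%. In male nucleus taenia there were 8, or 4%, against 2.79%, and in female nucleus taenia 4, or 2%, against 2.94%. These counts moved with the setting, to 6 to 20 in male hypothalamus and 7 to 24 in female hypothalamus over the alternatives. They moved to 7 to 23 in male nucleus taenia and 3 to 12 in female nucleus taenia. The shares of all genes under the same alternatives are not given here, so nothing is read from these ranges. The median log2 difference of the members was −0.14 in male hypothalamus and −0.04 in female hypothalamus, against −0.05 and 0.01 for all genes tested. It was 0.08 in male nucleus taenia and −0.06 in female nucleus taenia, against 0.02 and 0.03 for all genes tested. The 95% interval around a member's treatment difference reached a median of 1.34 to either side in the hypothalamus, or 2.53-fold, and of 1.31 in the nucleus taenia, or 2.47-fold.

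Of the members, ENSTGUG00000003351, ranked 82nd in r, had the smallest treatment p of the 200 in males in both regions and was singled out for it. Testosterone males 1 to 3 had 3.51, 4.57 and 1.65 FPKM in the hypothalamus, against 57.4, 27.9 and 13.3 FPKM in control males. Testosterone males 1 to 3 had 4.26, 6.10 and 5.05 FPKM in the nucleus taenia, against 62.6, 47.5 and 11.4 FPKM in control males. The groups did not overlap in either region. The log2 difference was −2.83 ± 0.54 in the hypothalamus (SE, limma adjusted p = 0.752) and −2.47 ± 0.53 in the nucleus taenia (SE, limma adjusted p = 1), so it did not pass in either. Testosterone females 1 to 3 had 21.7, 14.2 and 10.6 FPKM in the hypothalamus, against 18.3, 8.55 and 6.81 FPKM in control females. In the nucleus taenia they had 21.3, 20.4 and 10.1 FPKM, against 15.7, 9.67 and 10.95 FPKM in control females. The female groups overlapped in both regions, and the difference between the sexes in this effect was not tested. As the gene was chosen for agreement between the regions, the 2 regions are not separate evidence.

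For males against females, 0 of 13569 genes passed in the hypothalamus (0%) and 134 of 13551 in the nucleus taenia (0.989%). Of the 200 members 0 passed in either region. At an unadjusted p under 0.05 in limma there were 21 members in the hypothalamus, or 10.5%, against 9.93% of all genes tested. In the nucleus taenia there were 13, or 6.5%, against 10.7%. Among the members, the smallest limma adjusted p was 0.134 (hypothalamus) and 0.205 (nucleus taenia). The median log2 difference in the hypothalamus was −0.11 for the members and 0.00 for all genes tested. It was 0.01 in the nucleus taenia for the members and −0.02 for all genes tested.

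The sex comparison of the hypothalamus changed for 4 members when 1 library was left out, and they are named here for that reason. ENSTGUG00000007479, ranked 160th, had 23.1 to 129.4 FPKM in the 6 male hypothalamus libraries, with a mean of 78.4 ± 37.2, and 11.01 to 38.3 FPKM in the 6 female ones, with a mean of 20.6 ± 11.5 (SD, n = 6 each). Its log2 difference was 1.86 ± 0.38 (SE, limma adjusted p = 0.134), and 2.11 ± 0.33 (SE, limma adjusted p = 0.0228) without female testosterone hypothalamus replicate 3, the library that stands apart. It was the 1 member among 93 of 13575 genes called in that fit, or 0.5% of members against 0.685% of all genes. That library had the highest female value. Without it the sexes still overlapped, through control male 2 at 23.1 FPKM and control female 3 at 31.5 FPKM. In the nucleus taenia males had 68.4 ± 51.0 FPKM and females 29.9 ± 15.6 FPKM (SD, n = 6 each), with overlapping ranges and a limma adjusted p of 0.281.

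The other 3 passed without the library control male hypothalamus replicate 1. In that fit 4 of 13545 genes were called, or 0.0295%, and 3 of them were members. The rule used the deviations of this library, and nothing is read from this share. ENSTGUG00000017273, ranked 13th, had 869 FPKM in control male 1, against 40.3 to 91.2 FPKM in the other 5 male hypothalamus libraries and 205 to 490 FPKM in the 6 female ones. In the nucleus taenia it had 879 FPKM in control male 1, 50.8 to 151.7 FPKM in the other males and 85.1 to 376 FPKM in the females. ENSTGUG00000004607, ranked 111th, had 663 FPKM in control male 1, 30.0 to 53.0 FPKM in the other males and 164 to 465.7 FPKM in the females of the hypothalamus. Both were thus higher in control male 1 than in any female library of the hypothalamus, and lower in the other males than in any female. ENSTGUG00000004054, ranked 42nd, went the other way, with 7.88 FPKM in control male 1, 97.7 to 198.6 FPKM in the other males and 19.0 to 41.5 FPKM in the females. Without control male hypothalamus replicate 1 the log2 difference of ENSTGUG00000017273 was −2.27 ± 0.26 (SE, limma adjusted p = 0.0254), against −1.70 ± 0.54 with all libraries (adjusted p = 0.354). That of ENSTGUG00000004607 was −2.50 ± 0.29 (SE, limma adjusted p = 0.0254), against −1.89 ± 0.58 (adjusted p = 0.354). That of ENSTGUG00000004054 was 2.14 ± 0.21 (SE, limma adjusted p = 0.0205), against 1.53 ± 0.56 (adjusted p = 0.409). In the nucleus taenia ENSTGUG00000004607 had 630 FPKM in control male 1, 30.0 to 122.6 FPKM in the other males and 41.2 to 246.6 FPKM in the females. There ENSTGUG00000004054 had 6.25 FPKM in control male 1, 19.3 to 152.6 FPKM in the other males and 16.3 to 115.9 FPKM in the females. Control male 1 was thus extreme in both regions, and the other males and the females overlapped in the nucleus taenia. As these members were chosen for agreement between the regions, the nucleus taenia is not separate evidence for the extreme values of control male 1.

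For the hypothalamus against the nucleus taenia, 0 of 13612 genes passed in limma (0%), and so 0 members. At an unadjusted p under 0.05 there were 8 members, or 4%, against 6.28% of all genes tested. The log2 difference of the members ran from −1.05 to 0.88, with a median of −0.02, and 2 of 200 members reached 1 in either direction, against 71 of 2561 other eligible genes. The median absolute difference was 0.18 in the members, 0.31 in the other eligible genes and 0.16 in all genes tested. The members thus differed less between the regions than the other eligible genes did, and about as much as all genes tested. This was not tested as a difference. In testosterone female 3 the other eligible genes had a mean deviation of −0.84 in the hypothalamus library, which stands apart, and −0.08 in the nucleus taenia. The members had 0.05 and −0.01. The part of that library in the region difference of the other genes was not tested. A sex difference that differed between the regions passed for 0 of 13612 genes (0%), and at an unadjusted p under 0.05 for 1 member, or 0.5%, against 6.05% of all genes tested. That member was ENSTGUG00000016331, with a log2 difference of 2.62 ± 1.13 between the regions (SE, limma adjusted p = 0.691). Both shares depend on the model, which leaves out the pairs on which the members were chosen to agree. With the pair as a block, 42 members had an unadjusted p under 0.05 for region, or 21%, against 9.68% of all genes tested, and 45 for sex by region, or 22.5%, against 10.7%. The adjusted counts stayed at 0 members and 0 genes (0%) in both. As the rule chose the agreement that the block removes, nothing is read from these shares.

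The group differences, which the rule had removed, were set side by side for the regions after the results above were seen. Across the 200 members the log2 difference of testosterone against control males in the hypothalamus correlated with that in the nucleus taenia (Pearson r = 0.528, Spearman rho = 0.392). Across the 2561 other eligible genes these were −0.367 and −0.347. In females they were 0.523 and 0.522 across members, and −0.01 and −0.01 across the others. For males against females they were 0.563 and 0.439 across members, and −0.01 and −0.05 across the others. These are descriptions across genes, which share libraries and are not independent replicates. The regions share no library in them, but they would share birds if pairs are birds. Variation shared within a pair, by which the members were chosen, enters the group means too. Agreement of the group differences can thus follow from the choice of the members.

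Over all 200 members the direction was the same in both regions in 58.5% for treatment in males, in 69.5% for treatment in females and in 64% for sex. In the other eligible genes it was the same in 38.9%, 44.1% and 42.8% for these comparisons. Of the larger differences, 33 members differed by at least 1 on the log2 scale between testosterone and control males in the hypothalamus. Of these, 26 differed in the same direction in the nucleus taenia and 10 did so by at least 1. Of 452 such genes among the other eligible ones, 116 had the same direction and 7 did so by at least 1. In females, 29 of 32 members kept the direction and 8 by at least 1, against 364 and 28 of 772 other genes. For sex, 23 of 25 members kept the direction and 9 by at least 1, against 156 and 18 of 368 others. Without the pair testosterone female 3, the direction for treatment in females was the same in 72% of members and 60.2% of the other eligible genes. For sex it was the same in 64% and 46.3%. Of differences of at least 1 in the hypothalamus, 25 of 26 members and 80 of 107 others then kept the direction for treatment in females. For sex, 19 of 21 members and 90 of 165 others did. Without that pair, the r across members was 0.737 for treatment in females and 0.686 for sex. Across the other eligible genes it was 0.310 and 0.062. The members' r was higher than that of the other genes with and without that pair. As the choice of the members can bring this agreement, nothing is read from the contrast with the other genes.

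**Figure D5:**
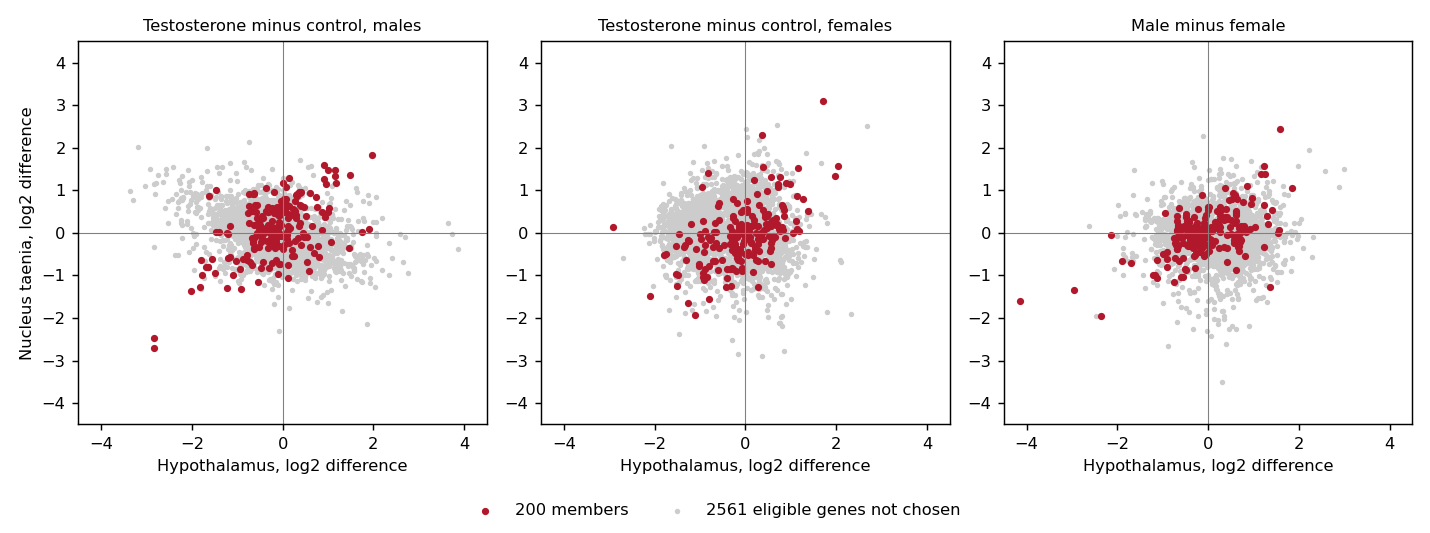
Log2 differences between group means of hypothalamus (x axis) and nucleus taenia (y axis) for testosterone minus control males, testosterone minus control females, and male minus female; each point is a gene, with the 200 members over the 2561 other eligible genes. Members spread along the rising diagonal (r = 0.528, 0.523 and 0.563), against r = −0.367, −0.01 and −0.01 for the other genes. Without the pair testosterone female 3, r of the other genes was 0.310 for treatment in females and 0.062 for sex. The members were chosen for agreement within pairs, which also enters group means.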

How the data were processed

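Per the submitters' processing notes, the authors used cutadapt 1.9.1, TopHat2 2.1.1 and Cufflinks 2.2.1, and they deposited FPKM for 17475 genes in 24 RNA libraries. Which genome build and annotation they used is not given in the sources here. The 24 methylation samples were not analysed here. Columns left out because no label matched them numbered 0. FPKM divides out depth, so the depth of a library and counting errors are unknown, and a very abundant gene lowers all other values of its library.

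Deviations, r, axes and counts were computed in Python 3.11.15 with pandas 2.3.3 and numpy 2.4.6, and sets of linked members with networkx 3.6.1. Figures were drawn with matplotlib 3.10.9. On log2(FPKM + 1), 8 contrasts were fitted in R 4.3.3 by limma 3.58.1, with trended moderation and 1 mean per group. Treatment and sex used the 12 libraries of a region, and region and sex by region all 24. Genes with a mean of at least 1 FPKM were tested. On the log2(FPKM + 1) scale the change of a low gene is understated. The fit and the rule were tested on simulated data.

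The members, lists and tests were chosen with earlier results of these data known. Without names, the rule for identifiers took the pair with the largest mean absolute deviation over the members (testosterone female 3). By r, it then took the first 2 members higher and the first 2 lower in that pair. These are the members ranked 1st, 4th, 2nd and 3rd. Every other identifier was singled out after its values were seen. Lists of genes and cell type markers gave no result, since they need gene symbols.

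Replicate numbers are shared between groups. Over 9137 genes, deviations of same-numbered libraries of both regions correlated above 0.1 in 8 of 12 pairs (−0.281 to 0.678). The numbers were therefore not taken to pair the regions in the main fits, though the rule for the members used them as pairs. Of 12 libraries each, 7 of the hypothalamus and 8 of the nucleus taenia correlated best with their own number. No control female library did, with r of −0.281, 0.155 and 0.061 for pairs 1 to 3, against up to 0.628, 0.533 and 0.285 with another number. Testosterone male 3 did not either (−0.261 against 0.257). Across treatments in female nucleus taenia all 3 correlated above 0.1 (0.178 to 0.400), which by the rule for this check makes them pairs. Nothing but these values supports it, and the main fit reported above did not use this pairing. It entered only the alternative with a replicate block. Across the sexes, all 3 did so in control hypothalamus (0.113 to 0.662) but not in testosterone hypothalamus (−0.269 to 0.011), so the sex contrast, which holds both, was not taken as paired. No treatment or sex contrast was paired in its main fit. Alternatives were other pseudocounts, filters, scaling, a rank correlation, a replicate block and leaving out each library or pair.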

Additional observations from a re-analysis of the deposited data

How the results depend on the processing

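The 200 members depended on the settings of the rule. Of them, 186 were chosen again with a pseudocount of 0.1, 141 with 5, 190 with median-ratio scaling and 151 with Spearman rho. A minimum mean of 20 FPKM kept 119, values of 0 allowed kept 116, a minimum SD of 0.4 kept 141 and no minimum SD kept 83; fewer or more genes are eligible under these by construction. Leaving out 1 pair kept 136 (without testosterone male 1) to 178, and leaving out the pairs testosterone female 3 and testosterone male 2 together, added after the data were seen, kept 112. The leading axis held 28.5% without testosterone female 3, where fewer axes are possible, against 23.6% with all pairs.

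The count of members passing in limma was 0 in 145 of 148 alternatives over the 8 contrasts. The exceptions were all in the sex comparison of the hypothalamus, where leaving out 1 library gave 0 to 3 members, with 3 without control male replicate 1 (4 of 13545 genes called, 0.0295%) and 1 without testosterone female replicate 3 (93 of 13575, 0.685%). Leaving out the 2 libraries of lowest mean r, an alternative added after the data were seen, gave 1. For the hypothalamus this is the same fit as that without testosterone female replicate 3, since the other library is of the nucleus taenia. It is therefore no separate exception, though it is counted among the 148. With the replicate number as a block, or the pair for region and sex by region, 0 members passed in all 8 contrasts, as in the main fits. Counts at an unadjusted p under 0.05 in limma were less stable. They were 6 to 42 members for region and 0 to 45 for sex by region, with the highest under the block. For sex they were 16 to 30 in the hypothalamus and 9 to 20 in the nucleus taenia. Apart from the block for region and sex by region, shares of all genes under these alternatives are not given here. Nothing is read from these ranges. Scaling moved the median log2 difference of all genes by at most 0.0334. FPKM gives no read numbers, so the precision of single values is unknown.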
